A study of Solanum lycopersicum with 95 samples.

Results

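The light-harvesting and Rubisco small-subunit genes of tomato were followed here in leaves and fruits of the same experiment. They form a fixed list of 34 gene identifiers, and 32 of them had a line in the count table of 34075 genes. Solyc03g005790 and Solyc05g056070 had none and were not analysed here. The list was made by identifier and not by expression. It holds genes of the chlorophyll a/b-binding family and genes of the Rubisco small subunit, but the sources used here do not pair the identifiers with names, so single genes are given by identifier only and without a role of their own.

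Chlorophyll a/b-binding proteins carry chlorophyll in the antennae around photosystem I and photosystem II and pass the energy of absorbed light to the reaction centres. The small subunit, made in the cytosol from several nuclear genes, joins the plastid-encoded large subunit to form Rubisco, the enzyme that fixes CO2 in the Calvin cycle. Both families are multigene, are among the strongest transcribed genes of green leaves, and are known in many plants for a daily rhythm set by light and the circadian clock. Green tomato fruits also hold chloroplasts.

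RNA was sequenced from plants of the cultivar Foundation, from leaf 13 and from fruits aged 10 days past anthesis at 0 h, when the plants were 63 days from sowing. All plants grew under red and white light at 258 µmol m-2 s-1 with a photoperiod of 16 h, and from 0 h on the Leaf FR plants received 77 µmol m-2 s-1 of added far-red light on the vegetative organs only, whereas No FR plants received none. Fruits of both treatments received no far-red, so any light effect in fruits is one of far-red on the rest of the plant. Samples were taken at 0, 6, 12, 24, 48 and 96 h from 4 plants per treatment and time point, and no plant was sampled a second time. Harvest at 0, 24, 48 and 96 h fell 4 h after lights on. The 6 h harvest came 10 h after lights on, and the 12 h harvest 16 h after, at the end of the photoperiod. At 0 h both treatments had received the same light.

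The table held 95 libraries in 24 groups, 47 from leaves and 48 from fruits. Leaf libraries summed to between 14769415 and 17845503 counts and fruit libraries to between 15631659 and 17957406. Levels are given as CPM, counts scaled to a common library size, after TMM scaling of the library sizes, and they are not corrected for transcript length. The lowest count of any listed gene in any library was 11 in leaves (Solyc06g069000) and 23 in fruits (Solyc08g067320). The organ labels were checked with a list of 3 carpel identity genes, taken with the ripening genes from general knowledge, whose summed level was 91.9 to 146 CPM in fruits and 0 to 1.07 CPM in leaves. Of 4 ripening genes, Solyc10g080210 was at 0 counts in all 95 libraries and Solyc05g012020 stayed near 0, whereas the other two were detected in both organs.

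Not every library sat with its time label. For libraries of 0, 6 and 12 h, the root-mean-square distance to the group means was taken on the log2 scale over all expressed genes. It placed 21 of 23 leaf libraries and 23 of 24 fruit libraries nearest to their own time point. The library labelled leaves No FR 6 h replicate 2 was about as near to 12 h (0.57) as to 6 h (0.56). The library labelled leaves No FR 12 h replicate 1 was nearest to 6 h (distance 0.58, against 0.67 to 12 h), and the library labelled leaves No FR 12 h replicate 2 was nearest to 0 h (0.53, against 0.79). In fruits, the library labelled No FR 12 h replicate 1 was about as near to 6 h (0.27) as to 12 h (0.28). The main counts and the sums of neighbours that rest on both of these 12 h leaf libraries are given with and without them. This choice was made after seeing the data. Most other values of No FR leaves at 12 h include both. The fruit library was kept. The distances included the listed genes, so leaving out a 12 h library near to 0 h favours a larger change from 0 h. The labels name no batch.

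The listed genes took a large part of all leaf transcripts and a small part of fruit transcripts. Their share of the counts was 4.44% to 22.3% in leaf libraries and 1.01% to 2.14% in fruit libraries, with no overlap between the organs. In bulk tissue, fewer green cells and less RNA per green cell cannot be told apart. At 0 h the mean share was 16.9% ± 2.92 (SD, n = 8) in leaves and 1.58% ± 0.216 (SD, n = 8) in fruits. Ranked by mean level over all leaf libraries, 5 of the 10 highest genes, 16 of the highest 25 and 25 of the highest 100 were on the list. In fruits none was in the highest 25, 8 were in the highest 100 and 20 in the highest 1000. These ranks are of counts, which also rise with transcript length.

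**Figure D1:**
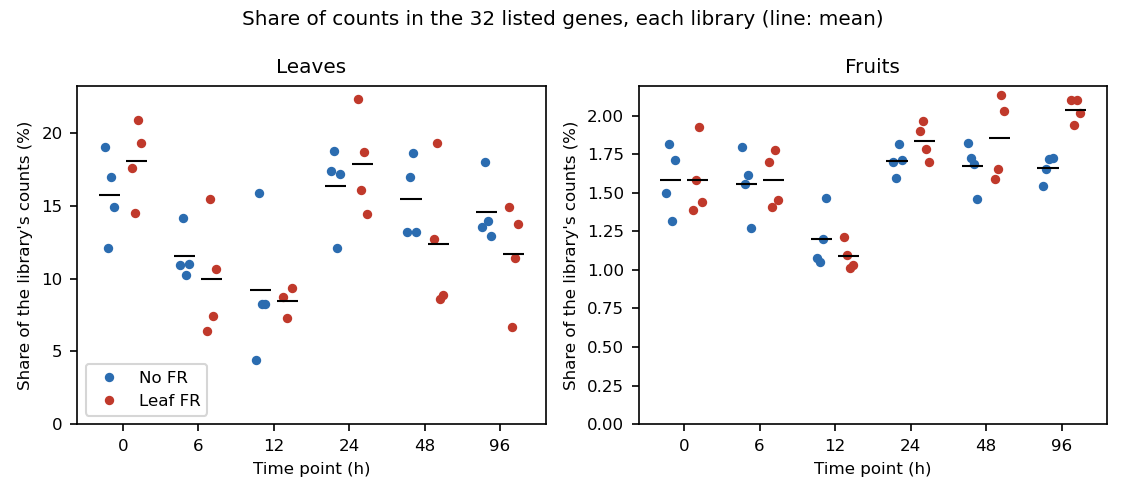
Share of all library counts (percent) taken by the 32 listed genes in each leaf and fruit library, by time in h and light treatment, with 1 point per library and the mean of each group. Leaf libraries lie between 4.44% and 22.3% and fruit libraries between 1.01% and 2.14%.

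Near-identical copies share reads, and the estimate then divides a read among them, so levels of single copies are uncertain. Identifiers whose numbers lay within 50 of each other were therefore also summed. This gave 4 groups of neighbours, namely Solyc02g070940 to Solyc02g071030 with 8 listed genes, Solyc03g005760 to Solyc03g005780 with 3, Solyc08g067320 to Solyc08g067330 with 2 and Solyc01g105030 to Solyc01g105050 with 2. Together they hold 15 of the 32 genes, and the other 17 stood alone, which left 21 items after summing. A sum does not repair sharing between distant copies.

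At 0 h all 32 genes were higher in leaves than in fruits, against 39.2% of the 19532 genes tested that were called higher in leaves (edgeR's quasi-likelihood test, Benjamini-Hochberg adjusted p under 0.05). Both light treatments entered this comparison, 8 libraries per organ. The median log2 fold change was 3.99 over the list and -0.08 over all genes tested. In 31 of 32 genes the leaf and fruit libraries did not overlap, but the share of all genes without overlap was not measured. The exception was Solyc06g069000, the least expressed of the list in leaves, with 3.20 to 13.9 CPM in leaves and 2.28 to 3.55 CPM in fruits (log2 fold change 1.44, adjusted p = 7.8e-06).

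**Figure D2:**
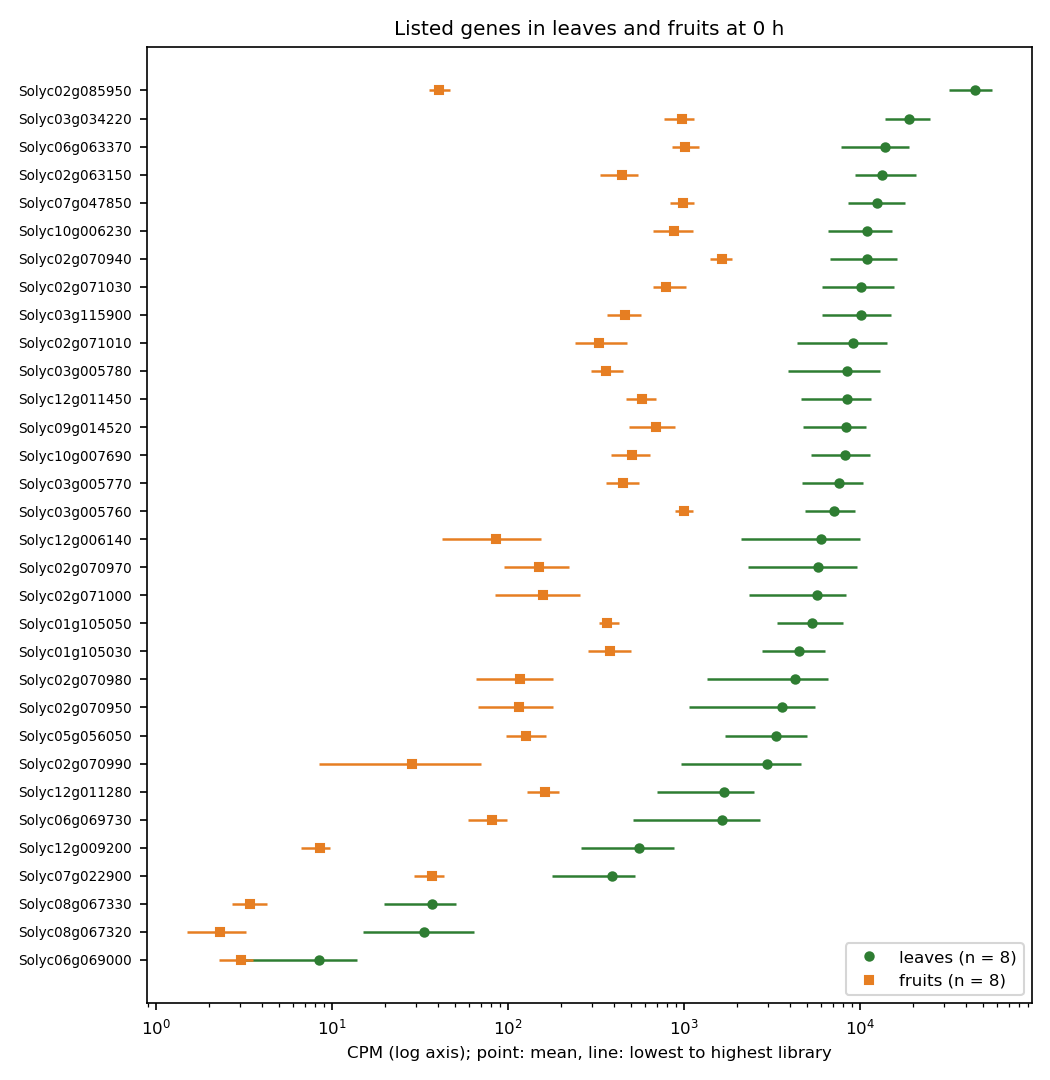
Level of each listed gene at 0 h in CPM on a log axis, for 8 leaf and 8 fruit libraries, with a point at the mean and a line from the lowest to the highest library. The leaf line lies wholly above the fruit line in 31 of 32 genes, and the widest gap is that of Solyc02g085950.

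The distance between the organs varied widely within the list. Solyc02g085950, the highest gene of all in leaves, had 32293 to 56202 CPM there (45093 ± 7948, SD, n = 8) and 35.6 to 47.1 CPM in fruits (40.6 ± 4.08). This is a 1076-fold difference (log2 fold change 10.07, SE 0.18, adjusted p = 3.4e-17), and the same gene ranked 3707 in fruits. Solyc02g070940 stood near the other end, with 6734 to 16246 CPM in leaves and 1412 to 1873 CPM in fruits. It differed 6.40-fold (log2 fold change 2.68, SE 0.16) and was the highest of the listed genes in fruits at 0 h by mean level.

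Other genes that were strong in leaves kept a clear level in fruits. Solyc03g034220 had 13928 to 24906 CPM in leaves and 767 to 1148 in fruits (log2 fold change 4.25). Solyc03g005760 had 4863 to 9440 CPM in leaves and 888 to 1126 in fruits (2.78). The organs were well separated in both genes, with the lowest leaf library several times above the highest fruit library. Solyc06g063370 had 7769 to 19092 CPM in leaves and 858 to 1223 in fruits, and Solyc07g047850 had 8575 to 18146 and 832 to 1142. Solyc10g006230 had 6585 to 15272 CPM in leaves against 671 to 1122 in fruits.

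A second set was far lower in fruits although never at 0 there. Solyc12g006140 had 2122 to 9979 CPM in leaves and 42.4 to 155 in fruits, which is 68.2-fold (log2 fold change 6.09). Solyc02g070990 had 964 to 4605 CPM in leaves and 8.44 to 70.6 in fruits (6.67), and Solyc12g009200 had 260 to 878 against 6.65 to 9.75 (5.97). The fruit libraries of Solyc02g070990 differed among themselves by more than those of Solyc12g009200.

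The remaining lone genes lay between these limits. At 0 h, Solyc02g063150 had 9433 to 20754 CPM in leaves and 335 to 546 in fruits, and Solyc03g115900 had 6089 to 15085 and 367 to 571. Solyc09g014520 had 4734 to 10897 CPM in leaves and 490 to 894 in fruits, Solyc12g011450 had 4620 to 11568 and 468 to 691, and Solyc10g007690 had 5245 to 11383 and 384 to 638. Lower levels in both organs were seen for 4 further lone genes. They were Solyc05g056050 with 1712 to 5016 CPM in leaves and 97.0 to 164 in fruits, Solyc12g011280 with 700 to 2504 and 127 to 194, Solyc06g069730 with 512 to 2720 and 59.4 to 98.6, and Solyc07g022900 with 179 to 529 and 29.2 to 43.4.

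Summed over neighbouring copies, all 21 items were higher in leaves. The sum of Solyc02g070940 to Solyc02g071030 was 25248 to 80148 CPM in leaves and 2673 to 4267 in fruits (15.3-fold, log2 fold change 3.93, SE 0.23). That of Solyc03g005760 to Solyc03g005780 was 13452 to 31986 and 1633 to 2127 (3.63), that of Solyc01g105030 to Solyc01g105050 was 6178 to 14359 and 614 to 920 (3.68), and that of Solyc08g067320 to Solyc08g067330 was 34.8 to 104 and 4.20 to 7.43 (3.57). Within the first group the copies were not alike in fruits, since Solyc02g070940 alone had a mean of 1653 of the 3340 CPM of the sum, whereas in leaves it had 10921 of 52679 CPM. The separation at 0 h did not hold at every hour. Over all time points, 17 of 32 genes had every leaf library above every fruit library, and the 15 others overlapped. The share of all genes was not measured for this either.

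The spread between replicates set how firmly changes could be read. The coefficient of variation within a group of libraries had a median of 36.3% over the genes and groups in leaves (range 5.71% to 169%) and 14% in fruits (0.244% to 94.1%). A difference of a given size is therefore easier to call in fruits than in leaves.

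The daily course was examined first under No FR, where only the hour changed between 0, 6 and 12 h. In leaves more of the list was called lower at 12 h than at 6 h. At 6 h, 6 of 32 genes were lower than at 0 h, a share near the 13.8% of all genes called lower, and at 12 h 14 of 32 were lower, against 4.23%. No gene of the list was called higher at either time. The median log2 fold change of the list was -0.97 at 6 h and -1.51 at 12 h. Both comparisons share the same 0 h libraries. With 1 library left out, the 14 became 0 without 0 h replicate 1 or without 12 h replicate 3, 3 without 12 h replicate 1 or replicate 4 and 26 without 12 h replicate 2, and the 6 became 2 without 6 h replicate 3 and 3 without 6 h replicate 1 or replicate 4.

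**Figure D3:**
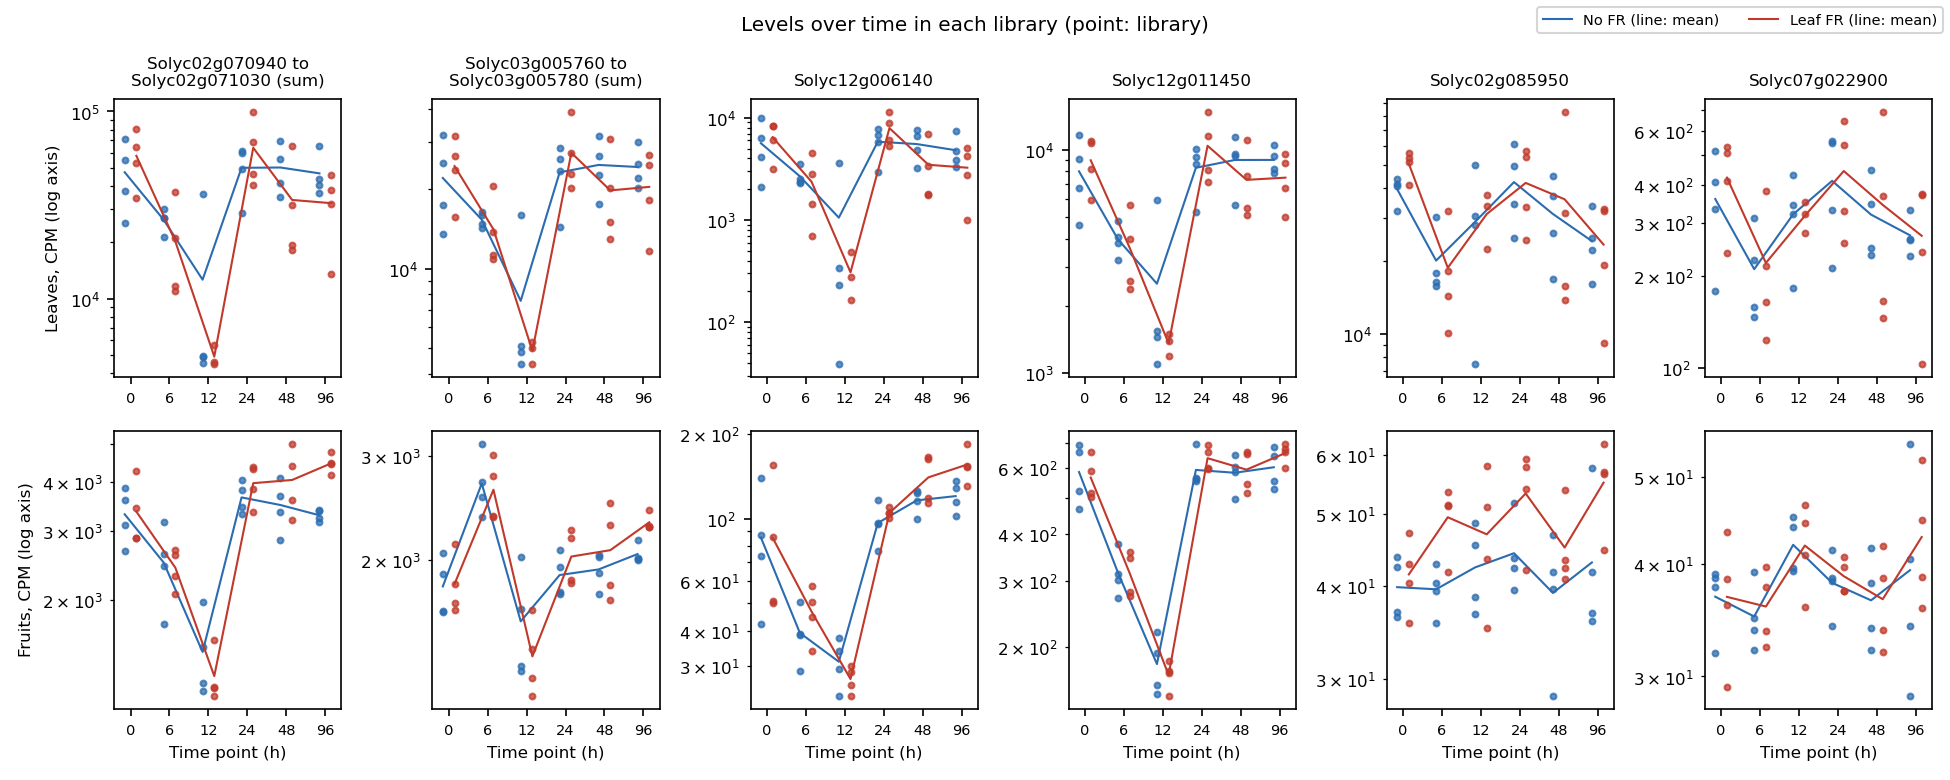
Summed level in CPM on a log axis of the neighbouring copies and single genes named in the panels, by time point in h (evenly spaced), in leaves and fruits under No FR and Leaf FR, with 1 point per library and lines through the group means. In the first 4 columns the lowest mean lies at 12 h in both organs, whereas for Solyc02g085950 and Solyc07g022900 the lowest leaf mean lies at 6 h and the fruit means stay within a narrow range.

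The largest group of neighbours is given library by library. The sum of Solyc02g070940 to Solyc02g071030 in leaves under No FR was 71328, 25248, 55163 and 37783 CPM at 0 h in replicates 1 to 4, and 27026, 30150, 21373 and 27143 CPM at 6 h. At 12 h it was 4895, 36208, 4959 and 4565 CPM. At 12 h 3 libraries were below every library of 0 h and the library labelled replicate 2 was among the 0 h values. The change from 0 to 12 h was 3.72-fold lower (log2 fold change -1.89, adjusted p = 0.040), and that to 6 h was not called (-0.85, adjusted p = 0.28). Without the libraries labelled 12 h replicates 1 and 2, the change to 12 h was -3.34 (adjusted p = 7.0e-05). At 24 h, 60367, 61782, 28755 and 49274 CPM were measured, which overlaps the range of 0 h.

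Within this group, Solyc02g071000 had the largest fall of those called at 12 h. It had 8221, 2339, 6325 and 3893 CPM at 0 h and 404, 3064, 329 and 210.0 CPM at 12 h (log2 fold change -2.36, SE 0.63, adjusted p = 0.025). Again replicate 2 of 12 h alone lay within the range of 0 h. At 6 h the largest fall was that of Solyc12g009200, with 576, 260, 511 and 408 CPM at 0 h and 57.7, 154, 75.5 and 74.3 CPM at 6 h (-2.29, SE 0.52, adjusted p = 0.0026). These groups did not overlap. By 12 h the same gene was at 53.3, 486, 231 and 212 CPM, and its change from 0 h was not called (-0.84, adjusted p = 0.31).

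Solyc12g006140 had the lowest fitted value of the list at 12 h but was not called. Its leaf levels under No FR were 9979, 2122, 6286 and 4113 CPM at 0 h and 38.6, 3600, 340.0 and 232 CPM at 12 h (log2 fold change -2.40, adjusted p = 0.071). Without the libraries labelled 12 h replicates 1 and 2, it was -4.33 (adjusted p = 8.7e-05). Over the list, 26 of 32 genes were then lower at 12 h, against 7.8% of all genes, with a median of -2.07. The 6 not called were Solyc02g063150, Solyc02g085950, Solyc03g034220, Solyc06g069000, Solyc07g022900 and Solyc12g009200. Replicate 2 was left out for its nearness to 0 h, which favours a larger fall from 0 h. The count of 26 is therefore no independent support for a fall.

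Solyc02g085950 was thus one of the genes whose evening level was not separated from that of the morning. It had 43784, 32293, 40965 and 41597 CPM at 0 h, 16420, 30302, 17801 and 15721 CPM at 6 h and 7452, 49780, 28108 and 30687 CPM at 12 h. All 4 libraries of 6 h were below all of 0 h, but the test called neither 6 h (-0.99, adjusted p = 0.11) nor 12 h (-0.46, adjusted p = 0.56). Solyc03g034220 showed much the same order, with 19546, 13928, 16651 and 16754 CPM at 0 h, 6095, 12295, 7849 and 7709 CPM at 6 h and 4122, 20593, 12656 and 13113 CPM at 12 h (-0.99, adjusted p = 0.052 at 6 h, and -0.41, adjusted p = 0.52 at 12 h).

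Under Leaf FR the leaves showed the same direction with more calls. At 6 h 20 of 32 genes were lower than at 0 h, against 18.5% of all genes, and at 12 h 24 of 32 were lower, against 9.2%. Here the hours of far-red and the hour of the day changed together. The medians were -1.47 and -2.36. The sum of Solyc02g070940 to Solyc02g071030 was 52832, 34445, 80148 and 64488 CPM at 0 h, 11016, 37280, 11672 and 21026 CPM at 6 h, and 4466, 5678 and 4609 CPM in the 3 libraries of 12 h. All libraries of 12 h were below all of 0 h, an 11.6-fold fall (log2 fold change -3.54, adjusted p = 3.0e-04). By 24 h the sum was 99901, 46433, 68961 and 40708 CPM.

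Solyc02g070980, of a group of neighbours, had 4774, 2156, 5886 and 6578 CPM at 0 h and 72.9, 161 and 76.5 CPM at 12 h (log2 fold change -5.53, SE 0.95, adjusted p = 3.2e-04), the largest fall of the list under Leaf FR. Solyc12g006140, a lone gene, had 6052, 3124, 8380 and 8228 CPM at 0 h and 274, 165 and 483 CPM at 12 h, a 20.6-fold fall (-4.36, adjusted p = 3.1e-04). The 2 groups did not overlap in either gene. The 8 genes not called at 12 h were Solyc02g063150, Solyc02g085950, Solyc03g034220, Solyc06g069000, Solyc07g022900, Solyc08g067330, Solyc09g014520 and Solyc12g009200. Of these, all but Solyc08g067330 and Solyc09g014520 were also the genes not called under No FR without both doubted libraries.

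The other groups of neighbours moved less by 12 h. The sum of Solyc03g005760 to Solyc03g005780 in leaves was 31986, 13452, 25096 and 17383 CPM at 0 h under No FR and 4373, 15880, 5119 and 4830 CPM at 12 h (log2 fold change -1.54, adjusted p = 0.018). Under Leaf FR it was 23626, 15707, 31598 and 26587 CPM at 0 h and 4341, 5294 and 5023 CPM at 12 h (-2.30, adjusted p = 3.2e-04). Replicate 2 of No FR at 12 h was the only 12 h library within the range of 0 h in this sum. The sum of Solyc01g105030 to Solyc01g105050 was already lower at 6 h (-1.24, adjusted p = 0.026 under No FR, and -2.06, adjusted p = 0.0023 under Leaf FR) and stayed so at 12 h (-1.33, adjusted p = 0.042, and -2.12, adjusted p = 0.0090). The low sum of Solyc08g067320 to Solyc08g067330 was not called at 12 h (-0.99, adjusted p = 0.071, and -1.73, adjusted p = 0.082). Without the libraries labelled No FR 12 h replicates 1 and 2, the No FR values were -2.17, -1.82 and -1.55, in the order given. Their adjusted p was 4.5e-04, 0.0028 and 0.015, so the last sum was then called. Replicate 2 was left out for its nearness to 0 h, which favours a larger fall.

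In fruits fewer genes of the list were called lower at 12 h than in leaves, but under No FR this order rested on single libraries. With 1 library left out, the No FR count at 12 h ran from 0 to 26 in leaves and from 6 to 10 in fruits. Under No FR, 4 of 32 genes were lower at 6 h, against 3.33% of all genes, and 1 was higher, against 3.13%. At 12 h 7 of 32 were lower, against 2.83%, and none was higher. Under Leaf FR 4 were lower at 6 h, against 4.27%, and 1 was higher, a share near the 4.93% of all genes, and at 12 h 14 were lower, against 6.68%. The 4 became 2 without 0 h replicate 2 or 3 or without 6 h replicate 2 or 4, and the 1 became 3 without 0 h replicate 3. The medians over the list were -0.09 and -0.27 under No FR and -0.01 and -0.45 under Leaf FR.

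Solyc02g070940 was called lower at 12 h in fruits of both treatments. It had 1575, 1850, 1412 and 1873 CPM at 0 h under No FR, 1121, 979, 1044 and 684 CPM at 6 h and 379, 401, 546 and 691 CPM at 12 h. No library of 6 or 12 h reached the lowest library of 0 h, and at 12 h the level was 3.33-fold lower (log2 fold change -1.73, SE 0.17, adjusted p = 2.7e-07). At 24 h it was back at 1775, 1558, 1824 and 1629 CPM. Under Leaf FR the evening value was -1.95 (adjusted p = 4.7e-10).

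Solyc12g011450 followed the same course, with 521, 661, 468 and 691 CPM at 0 h, 377, 303, 313 and 270.1 CPM at 6 h, 151, 159, 193 and 219 CPM at 12 h and 565, 552, 694 and 560.4 CPM at 24 h in fruits under No FR. Its 3 groups of 0, 6 and 12 h did not overlap, in falling order (-1.70 at 12 h, SE 0.14, adjusted p = 1.9e-08). Solyc12g006140 had 73.7, 139, 42.4 and 87.3 CPM at 0 h, 50.8, 38.8, 38.8 and 28.8 CPM at 6 h and 33.8, 29.2, 23.4 and 37.8 CPM at 12 h. It was called at both hours (-1.12, adjusted p = 0.0036, and -1.46, adjusted p = 3.5e-04), and it had the largest fall of the list at 6 h. Solyc07g047850 was also called lower at both hours (-0.46, adjusted p = 0.042, and -1.06, adjusted p = 1.6e-05), as were Solyc02g070940 and Solyc12g011450.

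The gene that rose in fruits at 6 h was Solyc03g005760 in both treatments. Under No FR it had 888, 1072, 977 and 1035 CPM at 0 h, 1862, 1708, 1727 and 1486 CPM at 6 h and 679, 660.1, 908 and 1048 CPM at 12 h (log2 fold change 0.78 at 6 h, SE 0.12, adjusted p = 1.3e-04). Under Leaf FR it had 951, 988, 1126 and 988 CPM at 0 h and 1726, 1509, 1918 and 1484 CPM at 6 h (0.72, adjusted p = 2.4e-04). Every library of 6 h was above every library of 0 h in both treatments. In leaves the same gene was not called at 6 h (-0.38, adjusted p = 0.45, and -0.54, adjusted p = 0.13). The rise held in the sum of Solyc03g005760 to Solyc03g005780, from 1633, 2053, 1639 and 1893 CPM to 3152, 2559, 2712 and 2367 CPM under No FR (0.58, adjusted p = 0.0039), and was 0.54 under Leaf FR (adjusted p = 0.0065).

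Summing changed the picture of the largest group in fruits as well. The sum of Solyc02g070940 to Solyc02g071030 under No FR was 3108, 3878, 2673 and 3600 CPM at 0 h, 3167, 2447, 2633 and 1745 CPM at 6 h and 1179, 1232, 1519 and 1983 CPM at 12 h. The groups of 0 and 12 h did not overlap (log2 fold change -1.16, adjusted p = 9.9e-05, 2.24-fold lower), whereas 6 h overlapped with 0 h (-0.40, adjusted p = 0.21). Under Leaf FR the evening value was -1.40 (adjusted p = 4.9e-07). Of the 8 genes in the group, Solyc02g070940, Solyc02g071010 and Solyc02g071030 were called at 12 h under No FR.

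Set side by side over the 32 genes, the evening changes in leaves and fruits had a Pearson r of 0.60 and a Spearman rho of 0.68 under No FR, and 0.66 and 0.79 under Leaf FR. The points are genes of the same libraries and not independent, and the numbers describe these libraries only. The value was lower in leaves than in fruits for 29 of 32 genes under No FR and 31 of 32 under Leaf FR. Under No FR, 5 genes were called lower in both organs, 9 in leaves alone and 2 in fruits alone, which were Solyc02g070940 and Solyc12g006140. Under Leaf FR the numbers were 14, 10 and 0. The same split was not counted over all genes. The No FR values of this paragraph include both doubted leaf libraries. Under No FR the number of genes called in leaves ran from 0 to 26 with 1 library left out.

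**Figure D4:**
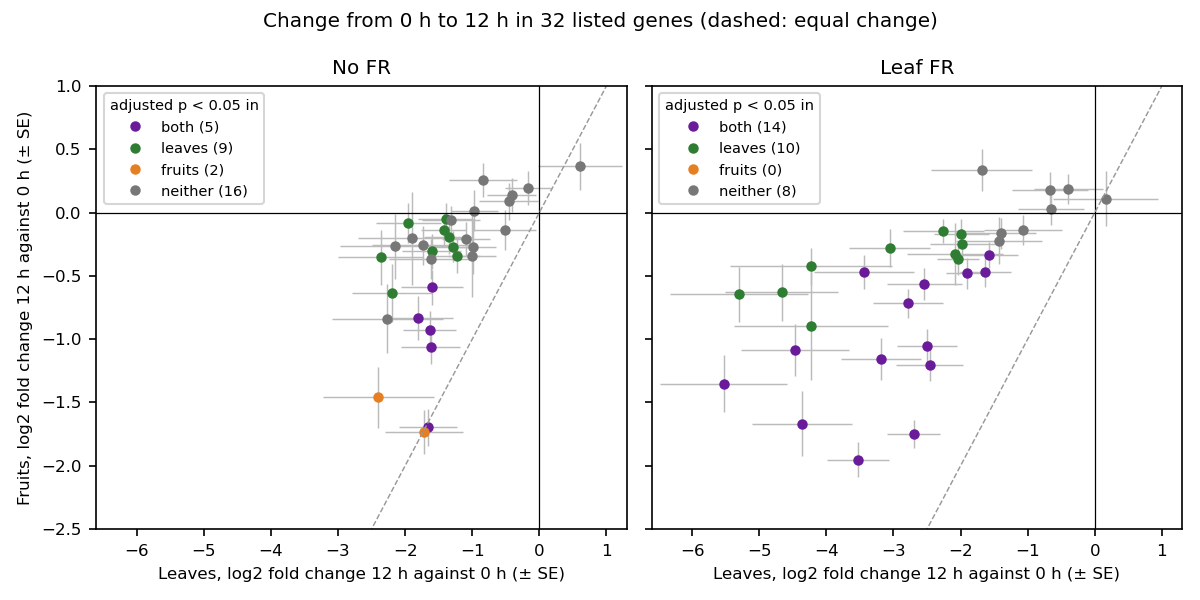
Log2 fold change from 0 to 12 h in leaves (x axis) and fruits (y axis) for each listed gene, under No FR and Leaf FR, with bars for the SE and the marker colour showing in which organ the change was called. Points lie on the leaf-larger side of the diagonal for 29 of 32 genes under No FR and 31 of 32 under Leaf FR.

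The difference between the organs was tested as an interaction under No FR. No gene of the list was called by edgeR, against 0.0608% of all genes, with 4 at an unadjusted p under 0.05, and none was called by DESeq2. The lowest adjusted p was 0.27 and the median difference, leaves minus fruits, was -1.0 on the log2 scale. Without both doubted leaf libraries 21 of 32 were called, against 6.82% of all genes, with values down to -4.48 (Solyc02g070950, SE 0.71, adjusted p = 0.0025). Without replicate 2 alone 20 were called, and 1313 of all 19661 genes tested. Under No FR, whether leaves and fruits differ in their evening fall thus rested on which leaf libraries of 12 h were kept. Leaving out replicate 2, which was near to 0 h, favours a larger fall in leaves, so the 21 and the 20 do not decide it. Under Leaf FR the interaction was not tested.

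Beyond the first day, levels at 4 h after lights on were compared between 96 and 0 h. In leaves under No FR no gene of the list was called in either direction by edgeR, against 0% of all genes lower and 0% higher, with 0 at an unadjusted p under 0.05 and 0 by DESeq2. Under Leaf FR 2 genes were lower, a share near the 5.39% of all genes, and none was higher, against 8.09%. The 2 became 0 without 96 h replicate 3, 1 with the replicate block and 6 by DESeq2. They were Solyc02g063150 (log2 fold change -2.13, adjusted p = 0.016) and Solyc12g009200 (-2.30, adjusted p = 0.033). Solyc02g063150 had 12228, 14222, 20754 and 16236 CPM at 0 h and 4569, 2313, 2542 and 5296 CPM at 96 h, and Solyc12g009200 had 599, 388, 839 and 878 CPM and then 189, 34.0, 132 and 201 CPM. The groups did not overlap in either gene. Under No FR their values were -0.84 (adjusted p = 0.42) and -0.81 (adjusted p = 0.46).

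In fruits the called genes were those of Leaf FR, and the difference between the treatments was not called. Under No FR no gene of the list was called at 96 h, against 6.63% of all genes lower and 7.32% higher (edgeR), with 3 at an unadjusted p under 0.05 and 0 by DESeq2. Under Leaf FR 16 of 32 genes were higher, against 11.1%, and none was lower, against 11.1%. The called changes ran from 0.38 to 1.41 on the log2 scale. Without the library of 0 h labelled replicate 1 the 16 became 8, and without that labelled replicate 4 they became 9. The highest was Solyc02g070990, with 11.8, 29.1, 70.6 and 9.10 CPM at 0 h and 89.8, 83.8, 71.7 and 77.5 CPM at 96 h (SE 0.41, adjusted p = 0.018). The groups did not overlap by a small margin, and the libraries of 0 h were far apart. Whether the change from 0 to 96 h differed between the treatments was tested as an interaction: 0 genes were called by edgeR, against 0% of all genes, with 8 at an unadjusted p under 0.05 and 0 by DESeq2. The lowest adjusted p was 0.47, and all 32 values were positive with a median of 0.36.

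Leaf FR was then compared with No FR at each time point, the contrast the experiment was built for. In leaves no gene of the list was called by edgeR at any time point. Of all genes, the share called was 0%, 0.365%, 0.00548%, 0.188%, 0.0795% and 0.263% in the order of the 6 time points. At an unadjusted p under 0.05, the list had 1 gene at 0 h, 2 at 96 h and 0 at the other times, and DESeq2 called 0 at each. The number of genes with a positive value was 31 of 32 at 0 h, before any far-red, then 2, 2, 27, 5 and 1, with medians of 0.26, -0.27, -0.62, 0.22, -0.32 and -0.46. The genes of a time point come from the same libraries, so these counts are not counts of independent values. At 12 h, without both doubted No FR libraries, the median was -0.02 and 14 of 32 were higher.

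At 96 h, 3 genes of the list were lower under Leaf FR with no overlap of the libraries, against 2.83% of all genes. Solyc02g070990 had 1504, 4361, 2103 and 1412 CPM under No FR and 863, 49.6, 762 and 806 CPM under Leaf FR (log2 fold change -1.92, SE 0.76, adjusted p = 0.39). Solyc02g070950 had 1559.5, 4497, 2914 and 1892 CPM and 1423, 110, 1057 and 1106 CPM (-1.55, SE 0.68, adjusted p = 0.43). Both belong to the same group of neighbours, so reads may be shared between them, and in both the library labelled Leaf FR replicate 2 was far below the others. The third gene was Solyc08g067330, with 33.6 to 58.3 CPM under No FR and 2.48 to 32.4 under Leaf FR (-1.04, adjusted p = 0.57). In the library labelled Leaf FR replicate 2 the whole list took 6.66% of the counts, against 11.4% to 14.9% in the other 3 of its group. Without this library edgeR again called 0 of 32 genes. The median of the list was then -0.20 in place of -0.46, and 9 values were positive in place of 1. The cause of its low share was not tested.

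In fruits no gene of the list was called by edgeR at any time point either. Of all genes, 0% were called at 0, 6, 12, 24 and 48 h and 0.0434% at 96 h. DESeq2 called 0 genes of the list up to 48 h, and at an unadjusted p under 0.05 edgeR had 0, 1, 0, 2 and 2. At 96 h, 27 of 32 were at an unadjusted p under 0.05, against 18.6% of all genes. DESeq2 called 18 higher there, against 3.36% of all genes. All 32 values were positive, from 0.11 (Solyc03g005760) to 0.92 (Solyc02g070980), with a median of 0.32, and 18 genes were higher with no overlap of the libraries, against 6.99% of all genes. The adjusted p of edgeR lay between 0.068 and 0.80. Without Leaf FR replicate 2 edgeR called 11 of the list, and 945 of all 18335 genes tested. Without No FR replicate 2 it called 3 of the list, and 29 of all 18337. The number of positive values was 15, 17, 2, 31, 30 and 32 of 32 from 0 to 96 h, with medians of -0.00, 0.03, -0.17, 0.10, 0.19 and 0.32.

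**Figure D5:**
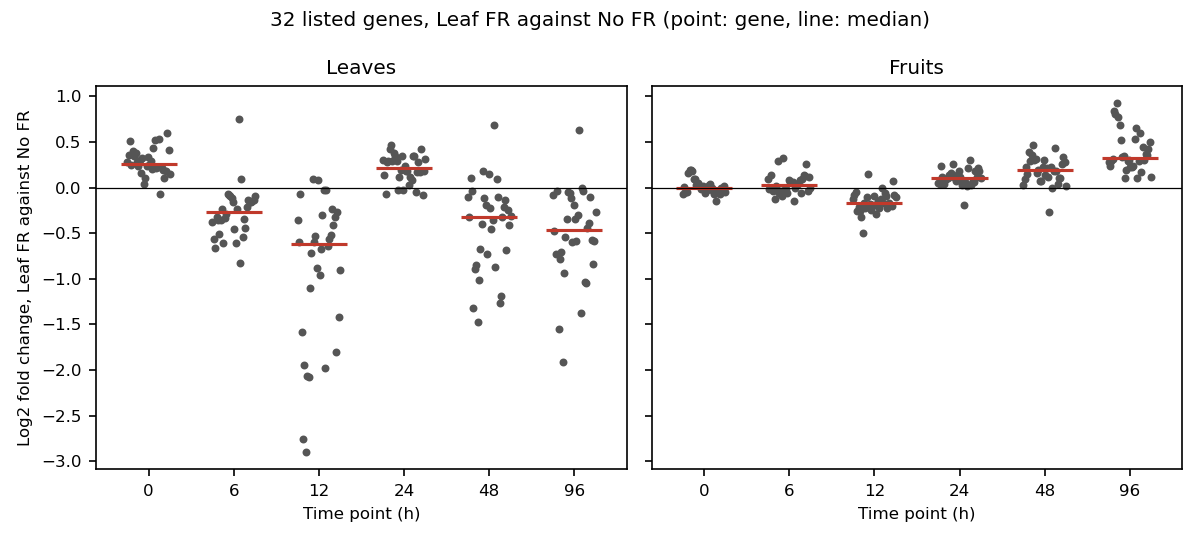
Log2 fold change of Leaf FR against No FR for each listed gene at each time point, in leaves and in fruits, with 1 point per gene and the median of the list. In fruits at 96 h all 32 points are above 0 with a median of 0.32, none of them past the adjusted threshold of edgeR.

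No gene of the list passed the threshold of edgeR between treatments in fruits at 96 h. Solyc02g070980, with the lowest adjusted p, had 112, 123, 76.4 and 92.1 CPM under No FR and 213, 179, 187 and 193 CPM under Leaf FR (log2 fold change 0.92, SE 0.14, adjusted p = 0.068). Solyc02g071000 had 164, 183, 144 and 165 CPM and then 298, 236, 269.6 and 257 CPM (0.68, SE 0.10, adjusted p = 0.068). Solyc02g070970 was at 135, 155, 97.7 and 118 CPM and 259, 194, 224 and 215 CPM (0.81), and Solyc02g070990 at 57.6, 54.2, 37.4 and 38.5 CPM and 89.8, 83.8, 71.7 and 77.5 CPM (0.77). All Leaf FR libraries were above all No FR libraries in these 4 genes.

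The most abundant copy had a smaller fold change. Solyc02g070940 had 1663, 1576, 1593 and 1593 CPM under No FR and 2058, 1913, 1988 and 2064 CPM under Leaf FR at 96 h (0.31, SE 0.08, adjusted p = 0.099). Summed over the group, Solyc02g070940 to Solyc02g071030 had 3400.5, 3382, 3159.6 and 3240.4 CPM under No FR and 4765, 4183, 4456 and 4471 CPM under Leaf FR (0.43, SE 0.09, adjusted p = 0.079). The libraries did not overlap in either. The other 3 sums had 0.26 (Solyc01g105030 to Solyc01g105050, adjusted p = 0.16), 0.17 (Solyc03g005760 to Solyc03g005780, adjusted p = 0.31) and 0.34 (Solyc08g067320 to Solyc08g067330, adjusted p = 0.30).

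Genes outside that group had positive values as well, and none passed the threshold. Solyc09g014520 had 724, 739, 709 and 695 CPM under No FR and 1044, 896, 1028 and 978 CPM under Leaf FR in fruits at 96 h (0.45, adjusted p = 0.074). Solyc06g069730 had 78.0, 84.2, 59.5 and 78.2 CPM and 125, 105, 134 and 111 CPM (0.65, SE 0.12, adjusted p = 0.074), and Solyc10g007690 had 499, 531, 545 and 549 CPM and 702, 639.7, 699 and 717 CPM (0.36). None of these groups overlapped. At the whole-list level the share of counts in fruits at 96 h was 1.55%, 1.66%, 1.72% and 1.72% under No FR and 2.10%, 1.94%, 2.10% and 2.01% under Leaf FR.

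Whether the 96 h values differed between organs was tested as an interaction, fruits minus leaves. No gene of the list was called by edgeR, against 0.511% of all genes, with 12 at an unadjusted p under 0.05. DESeq2 called 2, Solyc02g070950 (edgeR value 2.41, SE 0.73, adjusted p = 0.16, and DESeq2 adjusted p = 0.031) and Solyc02g070990 (2.70, SE 0.82, adjusted p = 0.15, and DESeq2 adjusted p = 0.026). Without the leaf library labelled Leaf FR 96 h replicate 2, edgeR called 3 of the list, and 290 of all 19660 genes tested. The median of the list was then 0.55 in place of 0.78. For the 12 and the DESeq2 count, the share of all genes is not given here.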

How the data were processed

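Leaves and fruits of 4 plants per treatment and time point were sequenced, and 95 libraries remained, with 3 in leaves under Leaf FR at 12 h. The authors filtered the reads, aligned them to ITAG4.0 with Bowtie2 and estimated counts per gene with RSEM, and deposited these expected counts, not normalized, in whole numbers. The authors' table of normalized counts was not used. RSEM divides reads of near-identical copies among them, so neighbouring identifiers were also summed.

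Genes that reached 10 counts in 3 or more libraries of a comparison were tested by the quasi-likelihood method of edgeR (version 4.0.16, under R 4.3.3 with limma 3.58.1), with TMM scaling and two-sided p-values adjusted by Benjamini-Hochberg over all genes tested, at a threshold of 0.05. SE is the log2 fold change divided by the square root of F. Alternatives were DESeq2 1.42.0, other scalings, no filter on low counts, 1 fit per organ, 12 h against 24 h, a replicate block and each replicate left out. Between treatments and time points, replicates were separate plants. Leaf and fruit of 1 replicate number may come from 1 plant, which the labels do not state. Their deviations from the group means had a median correlation of 0.06 (13 of 47 over 0.1), against -0.02 (10 of 141) for different numbers. The organ comparisons treated them as independent and were repeated with the number as a block.

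The genes and lists were chosen with earlier results of these data known. Named genes are each lone gene and the largest called changes under No FR. Solyc02g070940 and Solyc03g005760 were named as the highest in fruits at 0 h of their groups of neighbours. Solyc03g005760 was not the highest of its group in leaves. The group Solyc01g105030 to Solyc01g105050 is given as a sum only. Others, such as those of 96 h, were chosen after their values were seen. No pair of libraries in a group differed by less than sampling noise (141 pairs, lowest chi-square per degree of freedom 5.94). No sequences are printed.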

Additional observations from a re-analysis of the deposited data

Results flagged for a closer look

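In 299 groups of 4 libraries, 22 held a library whose gap to the nearest other, as a part of the group's range, was above Dixon's critical value for 4 samples at the 95% level. Chance flags about 1 in 20 groups, which here gives about 15. Their causes were not tested, and 7 of the 22 lay in the library labelled leaves No FR 12 h replicate 2, so the groups are not independent of each other.

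That library was the highest of its group for the sum of Solyc02g070940 to Solyc02g071030 (36208 CPM, others 4565 to 4959), the sum of Solyc03g005760 to Solyc03g005780 (15880 CPM, others 4373 to 5119), Solyc12g006140 (3600 CPM), Solyc12g011450 (5958 CPM), Solyc07g047850 (8910 CPM), Solyc03g005760 (5878 CPM) and Solyc02g070990 (2393 CPM). In leaves under No FR at 6 h, replicate 2 was highest for Solyc02g085950 (30302 CPM, others 15721 to 17801) and Solyc12g006140 (3502 CPM), and replicate 4 for the sum of Solyc08g067320 to Solyc08g067330 (61.8 CPM, others 42.3 to 42.4). That sum was also highest in leaves under Leaf FR at 6 h in replicate 2 (59.9 CPM) and lowest in leaves under No FR at 24 h in replicate 3 (41.7 CPM, others 78.3 to 84.0).

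Under Leaf FR, leaf replicate 2 of 48 h was highest for Solyc03g034220 (31334 CPM) and Solyc02g070990 (3045 CPM), and leaf replicate 2 of 96 h was lowest for Solyc02g070990 (49.6 CPM). In fruits under Leaf FR, replicate 1 of 12 h was highest for the sum of Solyc02g070940 to Solyc02g071030 (1589 CPM, others 1139 to 1206), replicate 1 of 96 h for the sum of Solyc03g005760 to Solyc03g005780 (2436 CPM) and replicate 2 of 24 h for Solyc03g034220 (1281 CPM), while replicate 2 of 96 h was lowest for the sum of Solyc08g067320 to Solyc08g067330 (5.76 CPM). In fruits under No FR, replicate 3 of 96 h was highest for the sum of Solyc03g005760 to Solyc03g005780 (2165 CPM) and Solyc03g034220 (1289 CPM), and replicate 3 of 24 h for Solyc12g011450 (694 CPM).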

How the results depend on the processing

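The count of genes higher in leaves was 32 under every alternative run. In leaves under No FR, the 14 genes lower at 12 h became 22 by DESeq2, 23 with the replicate block and 26 without the libraries labelled 12 h replicates 1 and 2, and 0 to 26 with 1 replicate left out, the highest without 12 h replicate 2 and the lowest without 0 h replicate 1 or 12 h replicate 3. The 6 lower at 6 h became 10 by DESeq2 and 2 to 9 with 1 left out. In leaves under Leaf FR, the 2 lower at 96 h became 6 by DESeq2, 1 with the replicate block and 0 to 2 with 1 left out, the lowest without 96 h replicate 3, the 20 of 6 h became 14 to 28 and the 24 of 12 h became 19 to 24. In fruits under No FR, the 7 lower at 12 h became 11 against 24 h and 6 to 10 with 1 left out, the 5 of 6 h became 4 to 5 and the 0 of 96 h became 0 to 3, the highest without 0 h replicate 2. In fruits under Leaf FR, the ranges with 1 left out were 3 to 5 at 6 h, 10 to 18 at 12 h and 8 to 22 at 96 h. The causes were not tested.

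For Leaf FR against No FR in fruits at 96 h, the 0 genes became 18 by DESeq2, 3 in 1 fit over the organ and 0 to 11 with 1 left out, 11 without Leaf FR replicate 2. Without that library 945 of all 18335 genes tested were called. The organ by hour count of 0 became 21 without both doubted libraries and 0 to 20 with 1 left out, and the organ by light count became 2 by DESeq2 and 0 to 3, the highest without leaf Leaf FR replicate 2. The other light counts and the light by time count stayed at 0 with 1 left out. With the replicate block, where leaf and fruit of a number were taken as 1 plant, the counts of the organ comparisons were still 32, 0 and 0. Among the 21 items after summing, the replicate block gave 8, 14 and 1 called in place of 5, 9 and 2 for leaves of No FR plants at 6 and 12 h and of Leaf FR plants at 96 h. With TMM-scaled totals, the mean share at 0 h was 25% in leaves and 1.3% in fruits, and at 96 h fruits had 1.35% (No FR) and 1.69% (Leaf FR). Of 2484 values of single genes under an alternative, 196 lost their call, 35 gained one and none changed direction. These were genes called in the main fit, or without overlap at 96 h between treatments, so a stable direction was favoured beforehand. Other values did change sign. For Leaf FR against No FR in leaves at 12 h, positive values went from 2 to 25 of 32 without No FR replicate 2.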
